A study of Mus musculus with 23 samples.

Results

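The MHC class II antigen presentation genes were 8 of the 24917 loci counted in the colonic epithelium of mice, taken as the rows whose symbol was H2-Aa, H2-Ab1, H2-Eb1, Cd74, H2-DMa, H2-DMb1, H2-DMb2 or Ciita. Each symbol had 1 locus. Total RNA libraries were made from the epithelium that EDTA released from the whole colon of male C57BL/6 mice (C57BL/6J in the methods), which were 6 weeks old when the diets began and had been fed them for 43 weeks. Control mice (LF) ate a 10% fat diet throughout, obese mice (HF) ate a 60% fat diet throughout, and formerly obese mice (HF-LF, written HFLF in the labels) ate the 60% fat diet for 15 weeks and then the 10% fat diet for 28 weeks. No genetic change or agent other than diet was used, and all 3 groups shared the strain, the sex and the age. Batch 1 held 4 LF, 3 HF and 4 HF-LF samples, and batch 2 held 4 LF, 3 HF and 5 HF-LF samples. The labels name these batches without saying what differed between them. The methods give fewer mice per regimen than there are samples of a diet over both batches, so samples of different batches may come from the same mouse, and p-values over both batches may then be too small.

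MHC class II molecules carry peptides from proteins taken up by a cell to its surface, where CD4 T cells read them. Dendritic cells, macrophages and B cells make them constantly, and the epithelium of the intestine can make them when it meets interferon gamma. A class II molecule is a pair of an α and a β chain that folds with the invariant chain in its groove, is carried to endosomes, and there exchanges the last fragment of the invariant chain for a peptide with the help of H2-DM. The transactivator CIITA switches these genes on together: it binds no DNA itself but sits on the factors RFX, CREB and NF-Y, which hold the X and Y boxes of each class II promoter.

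These boxes were searched for in the RefSeq promoter windows (GRCm38.p6, 250 bases before to 50 after a start site). Windows existed for 5 of the 8 members: H2-Aa, H2-Eb1, H2-DMa, H2-DMb1 and H2-DMb2. Shown are 87 bases of each window with a Y box, because 3 of these genes were high in the same samples and the other, H2-DMb2, was not. H2-DMb2 had only 2 to 15 counts a library. Capitals mark the Y box (TGATTGG, an inverted CCAAT box), the core of the X box (AACNGATG) and, in H2-Aa, a cyclic AMP response element (TGACGTCA).
H2-Aa, chr17:34287847-34287933 minus strand: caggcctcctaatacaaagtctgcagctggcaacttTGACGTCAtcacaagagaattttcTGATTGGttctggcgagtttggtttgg
H2-Eb1, chr17:34305746-34305832 plus strand: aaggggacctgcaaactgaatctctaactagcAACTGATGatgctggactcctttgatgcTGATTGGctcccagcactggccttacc
H2-DMb1, chr17:34153068-34153154 plus strand: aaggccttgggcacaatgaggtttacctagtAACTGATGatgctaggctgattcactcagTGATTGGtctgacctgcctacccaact
H2-DMb2, chr17:34145097-34145183 plus strand: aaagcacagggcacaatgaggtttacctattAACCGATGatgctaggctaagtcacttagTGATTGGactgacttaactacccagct
The motifs were chosen with these sequences in view and were searched on both strands, and no match overlapped another. Among all 32851 windows 7.82% held the Y box, 2.32% the X box core and 1.79% the cyclic AMP response element, and 0.0213% (7 windows) held an X box core at most 60 bases upstream of a Y box. Those 7 windows belonged to H2-Eb1, H2-DMb1, H2-DMb2, H2-Eb2, BC051142, G3bp2 and Gm35444. In H2-DMb1 and H2-DMb2 the pair was spaced alike, with the X box core starting 92 and 121 bases and the Y box 63 and 92 bases before the start site. The H2-Aa window held no match to the X box core, and both H2-DMa windows lacked all 3 motifs.

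Library totals ran from 29189922 to 46498521 counts in batch 1 and from 31607019 to 65320947 in batch 2. Levels below are CPM, counts per 1000000 counts of the library, scaled within each batch by the trimmed mean of M values (TMM), so samples are compared within a batch, and ranges or medians over the 23 samples are descriptions. A floor of 3 counts, the least taken as detection, was worth 0.0645 to 0.103 CPM in batch 1 and 0.0459 to 0.0949 CPM in batch 2. Markers of the labelled epithelium were abundant: Epcam was at 1495 CPM or more, Krt8 at 4799 CPM or more and Vil1 at 845 CPM or more in each of the 23 samples.

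The genes were low against those markers but counted with some precision. Per length of exon (RPKM, the CPM per kilobase of exon in GENCODE M21), Cd74 stood highest with a median over the 23 samples of 10.5 RPKM, ahead of H2-Aa at 4.52, H2-Ab1 at 4.37 and H2-Eb1 at 2.68 RPKM. H2-DMa followed at 1.09 RPKM, H2-DMb1 at 0.723, Ciita at 0.223 and H2-DMb2 at 0.0793 RPKM. H2-Aa and H2-Ab1 are the α and β chains of the same molecule, I-A, and their ranges over the samples (2.74 to 112 and 3.24 to 48.1 RPKM) overlapped widely. H2-Eb1, the β chain of I-E, was transcribed although C57BL/6 mice lack its α chain: the H2-Ea pseudogene had no count in 21 of the 23 libraries and reached 0.0216 CPM in the others. H2-DMb2, the second β chain gene of H2-DM, had 2 to 15 counts a library, too few for a test. It is a close copy of H2-DMb1, and how the authors' counting treated reads that match both is not given in the sources used here.

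In both batches class II expression differed widely between some samples of the same diet. In batch 1 the sample HF 3 was far above the rest, whereas in batch 2 the samples LF 4 and HF-LF 1 were. The 3 samples came from 3 different diets. Without them the ranges of the diets overlapped for H2-Aa and Cd74 in batch 1, where HF and LF also overlapped with HF 3 included. In batch 2 without them the ranges overlapped for Cd74. H2-Aa there was lower in HF (3.09 to 4.37 CPM) than in LF (4.43 to 5.73 CPM), and HF-LF (3.36 to 5.21 CPM) overlapped both. In tissue RNA, more cells of a type that expresses a gene cannot be told apart from more RNA per cell.

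**Figure D1:**
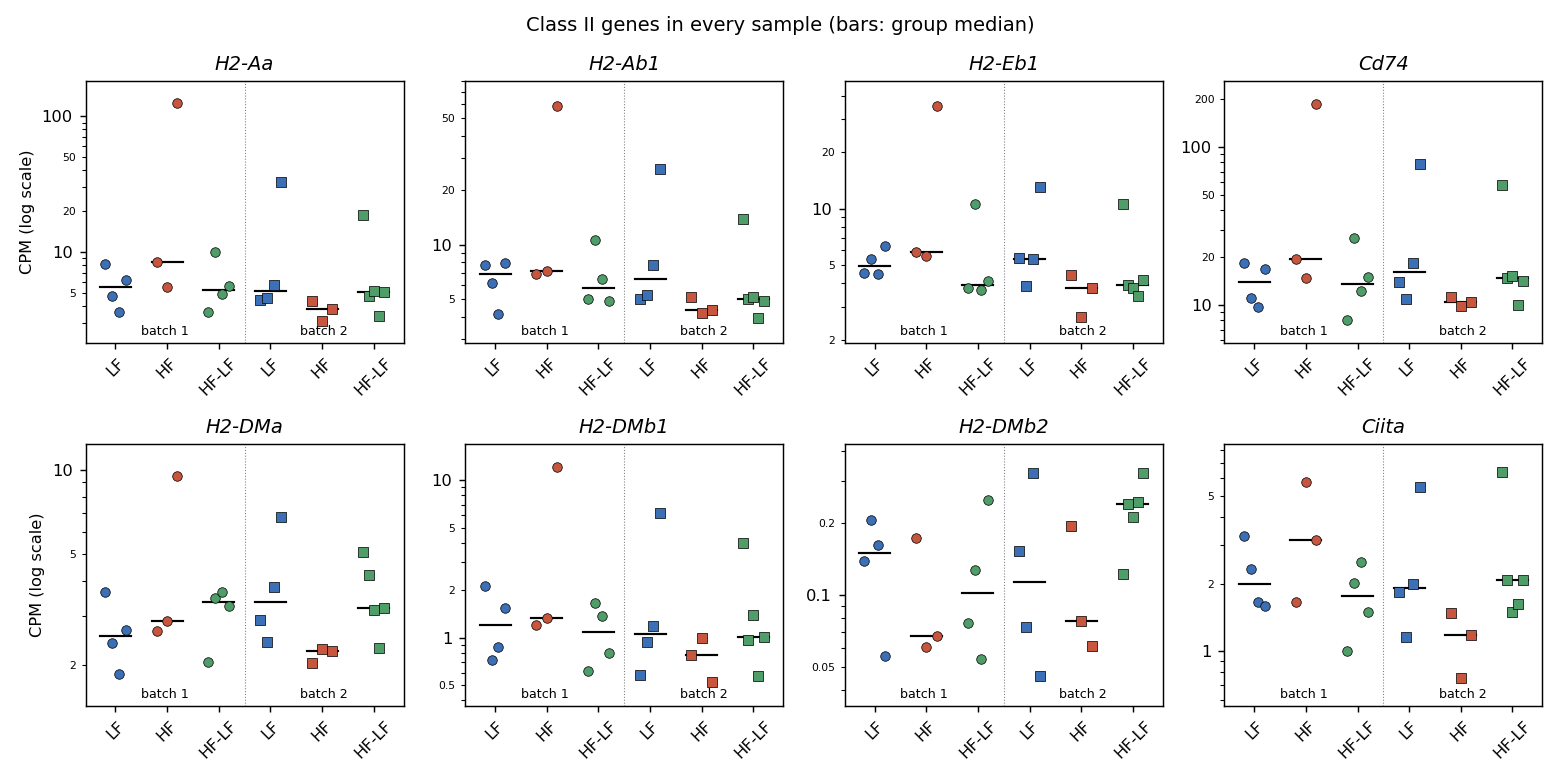
Level of each class II gene in the 23 samples, in CPM on a log axis, with circles for batch 1, squares for batch 2, colours for the diets and a bar at each group's median. HF 3 of batch 1 (H2-Aa 126 CPM, Cd74 186 CPM) and LF 4 and HF-LF 1 of batch 2 (Cd74 77.6 and 57.6 CPM) stand above the other samples for H2-Aa, H2-Ab1, H2-Eb1, Cd74, H2-DMa and H2-DMb1.

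H2-Aa in batch 1 was at 8.23, 4.78, 3.63 and 6.28 CPM in LF 1 to LF 4, at 8.50, 5.50 and 126 CPM in HF 1 to HF 3 and at 3.61, 10.1, 4.91 and 5.67 CPM in HF-LF 1 to HF-LF 4. HF 3 alone was thus 22.2 times the median of its batch, and HF 1 and HF 2 lay among the LF samples or just above them. In batch 2 it was at 4.43, 4.56, 5.73 and 32.9 CPM in LF 1 to LF 4, at 4.37, 3.09 and 3.81 CPM in HF 1 to HF 3 and at 18.8, 4.76, 5.21, 3.36 and 5.10 CPM in HF-LF 1 to HF-LF 5. LF 4 was 7.05 times and HF-LF 1 4.04 times the batch median, and the 3 HF samples lay just below the lowest LF sample. The group means carried this: HF in batch 1 averaged 46.7 ± 68.7 CPM (SD, n = 3), an SD larger than the mean, against 5.73 ± 1.99 (SD, n = 4) in LF.

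H2-Ab1, its β chain partner, showed the same order at the top. HF 3 of batch 1 had 58.3 CPM, where the other 10 samples of that batch had 4.12 to 10.6 CPM, and in batch 2 LF 4 had 26.2 and HF-LF 1 13.8 CPM, where the other 10 had 3.93 to 7.67 CPM. H2-Eb1 reached 35.2 CPM in HF 3 of batch 1 against 3.67 to 10.5 CPM in the others, and 13.1 and 10.6 CPM in LF 4 and HF-LF 1 of batch 2 against 2.63 to 5.44 CPM. The highest of those others in batch 1 for H2-Aa, H2-Ab1 and H2-Eb1 was HF-LF 2.

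Cd74, the invariant chain, had the largest counts of the 8 genes, from 318 to 8272 a library. In batch 1 it was at 18.5, 11.0, 9.71 and 16.8 CPM in LF 1 to LF 4, at 19.6, 14.9 and 186 CPM in HF 1 to HF 3 and at 8.09, 26.6, 12.3 and 15.0 CPM in HF-LF 1 to HF-LF 4. In batch 2 it was at 14.1, 10.9, 18.3 and 77.6 CPM in LF 1 to LF 4, at 11.2, 9.88 and 10.4 CPM in HF 1 to HF 3 and at 57.6, 14.9, 15.4, 9.95 and 14.3 CPM in HF-LF 1 to HF-LF 5. The samples that stood apart were again HF 3 of batch 1, at 12.4 times its batch median, and LF 4 and HF-LF 1 of batch 2, at 5.48 and 4.06 times theirs. Samples with the same diet and number in the other batch did not share the level: HF 3 of batch 2, LF 4 of batch 1 and HF-LF 1 of batch 1 were at 10.4, 16.8 and 8.09 CPM.

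H2-DMa and H2-DMb1, which form the peptide exchange factor, moved with the chains but over a narrower range for H2-DMa. H2-DMb1 had 12.1 CPM in HF 3 of batch 1 against 0.610 to 2.13 CPM in the other samples, and 6.22 and 3.97 CPM in LF 4 and HF-LF 1 of batch 2 against 0.520 to 1.38 CPM. H2-DMa had 9.51 CPM in HF 3 of batch 1 against 1.87 to 3.66 CPM, and in batch 2 6.80 and 5.07 CPM in LF 4 and HF-LF 1 against 2.04 to 4.22 CPM. H2-DMb2 did not follow them: HF 3 of batch 1 had 0.0676 CPM (3 counts), LF 4 of batch 2 0.0458 CPM (2 counts) and HF-LF 1 of batch 2 0.122 CPM (4 counts). These values lie near or under the floor of 3 counts, too low to rank samples.

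Ciita, the transactivator, separated from its targets in batch 1. It was at 3.30, 2.34, 1.65 and 1.59 CPM in LF 1 to LF 4, at 1.66, 5.74 and 3.15 CPM in HF 1 to HF 3 and at 0.992, 2.02, 2.51 and 1.49 CPM in HF-LF 1 to HF-LF 4. Its highest sample was therefore HF 2, whose H2-Aa (5.50 CPM) and Cd74 (14.9 CPM) lay at 0.970 and 0.993 times the batch median, and HF 3, with the highest chains, came after HF 2 and LF 1 for Ciita. In batch 2 Ciita went with the chains: it was at 1.83, 1.15, 1.99 and 5.47 CPM in LF 1 to LF 4, at 1.47, 0.754 and 1.18 CPM in HF 1 to HF 3 and at 6.41, 2.08, 1.49, 1.63 and 2.07 CPM in HF-LF 1 to HF-LF 5. HF-LF 1 and LF 4 led there, and the other 10 samples lay between 0.754 and 2.08 CPM.

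**Figure D2:**
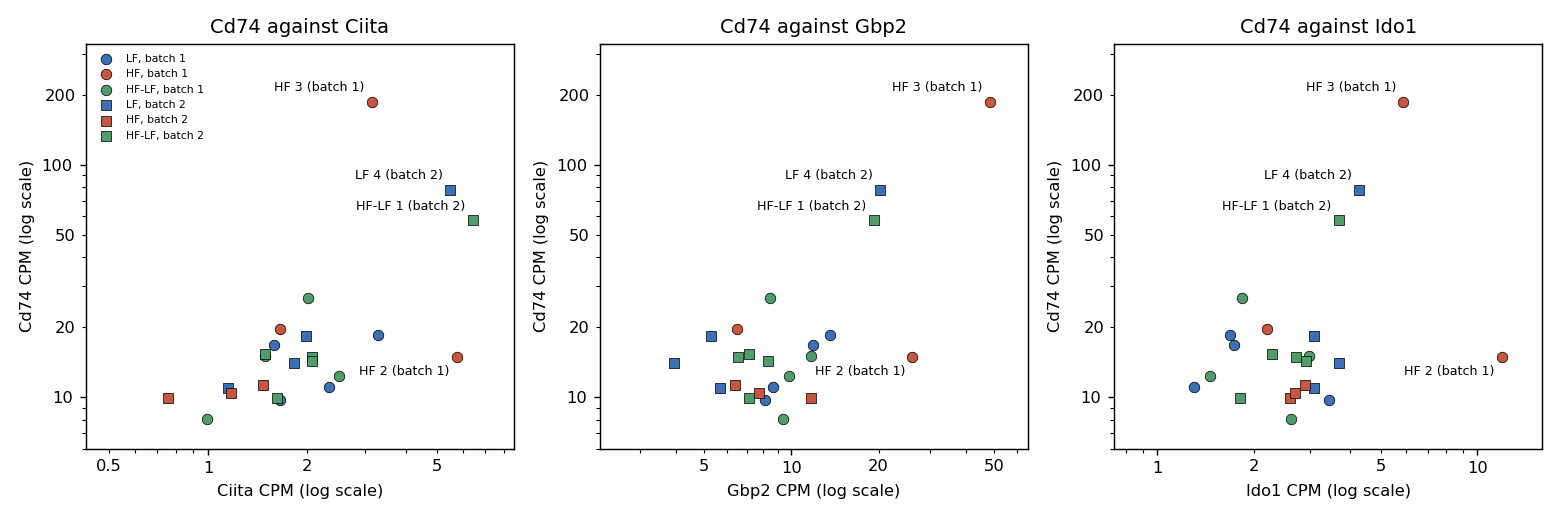
Cd74 against Ciita, Gbp2 and Ido1 in the 23 samples, in CPM on log axes, with colours for the diets, circles for batch 1 and squares for batch 2. HF 2 of batch 1 has the highest Ido1 (11.9 CPM) and an ordinary Cd74 (14.9 CPM), whereas HF 3 of batch 1 has the highest Cd74 (186 CPM) at 3.15 CPM of Ciita.

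The first comparison asked whether these genes differed between mice kept on the high-fat diet and control mice. It gave opposite signs in the batches and no call in either. A gene was called when edgeR's quasi-likelihood test, adjusted by Benjamini-Hochberg over all genes tested, gave p under 0.05 and the change exceeded 1.2-fold. In batch 1 all 7 tested members had a higher fitted level in HF than in LF, with a median log2 fold change of 1.89 against -0.0038 over all genes. H2-Aa had a log2 fold change of 3.03 ± 0.82 (SE, edgeR adjusted p = 0.155), Cd74 of 2.39 ± 0.70 (adjusted p = 0.160) and H2-DMa of 0.92 ± 0.40 (adjusted p = 0.206). In this comparison 0% of 14428 genes were called, and 6 of the 7 members had an unadjusted p under 0.05, as 22.2% of all genes had. DESeq2 called 512 of 14428 genes but none of the 2 members to which it gave a p. It gave none to the other 5, whose values its outlier rule set aside. In 13.6% of all genes the HF and LF samples did not overlap, but they overlapped in all 7 members.

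The values in batch 1 rested on HF 3. Without it the log2 fold changes fell to 0.30 ± 0.38 for H2-Aa, 0.31 ± 0.37 for Cd74 and 0.13 ± 0.31 for H2-Ab1, and the median to 0.16. Ciita, whose highest sample was HF 2, was the exception, at 0.65 ± 0.40 with HF 3 and 0.72 ± 0.46 without it. Leaving out HF 2 instead, so that HF 1 and HF 3 stood for the diet, made 5 members pass both criteria (H2-Aa, H2-Ab1, H2-Eb1, H2-DMb1 and Cd74, edgeR adjusted p from 0.0328 to 0.0474), as it did for 1352 of 14620 genes, and left Ciita at a log2 fold change of 0.12.

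In batch 2 all 7 members had a lower fitted level in HF than in LF, with a median log2 fold change of -1.28 against -0.013 over all genes. The values were -1.67 ± 0.72 for H2-Aa (SE, edgeR adjusted p = 0.124), -1.53 ± 0.67 for Cd74 (adjusted p = 0.131), -1.20 ± 0.56 for Ciita (adjusted p = 0.151) and -0.87 ± 0.32 for H2-DMa (adjusted p = 0.0811). None was called, where 7.44% of 14377 genes were, and 5 of the 7 had an unadjusted p under 0.05, against 33.1% of all genes. H2-DMa was called by DESeq2 alone (log2 fold change -0.86, adjusted p = 0.0307), which called 1845 of 14377 genes. The HF and LF samples did not overlap in 2 of the 7, H2-Aa and H2-DMa, a share close to the 27.3% of all genes. Without LF 4 the median became -0.43, with H2-Aa at -0.38 ± 0.50, Cd74 at -0.46 ± 0.50 and H2-DMa at -0.48 ± 0.25, all 7 members stayed lower in HF, and none had an unadjusted p under 0.05.

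**Figure D3:**
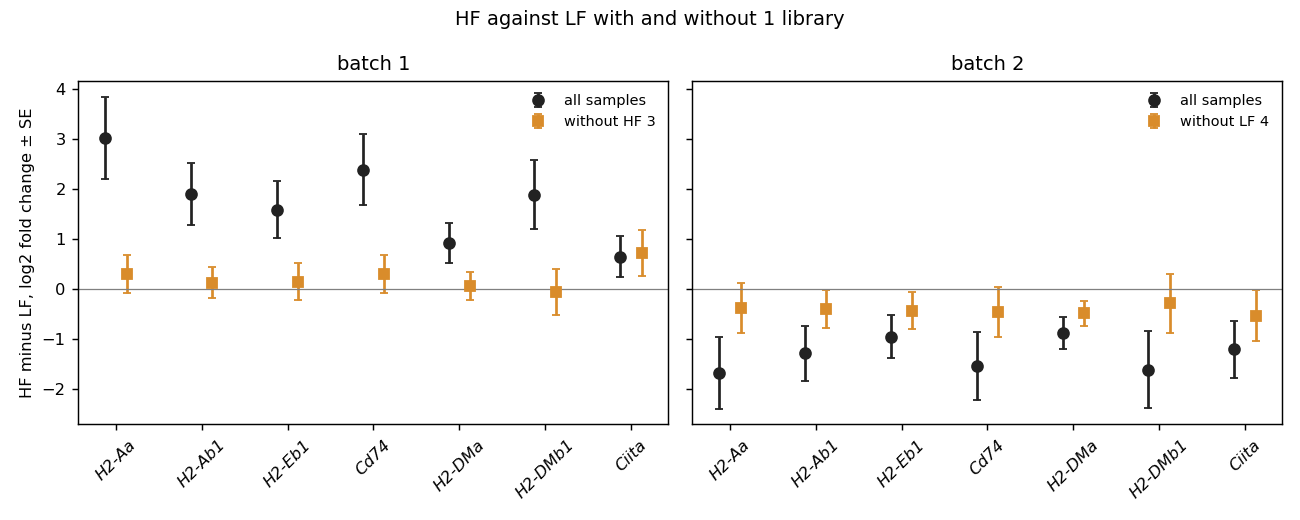
Log2 fold change of HF over LF for the 7 tested members, with bars of 1 SE from edgeR, in batch 1 (4 LF, 3 HF) and batch 2 (4 LF, 3 HF), with all samples and without the sample HF 3 of batch 1 or LF 4 of batch 2. The median of 1.89 in batch 1 becomes 0.16 and that of -1.28 in batch 2 becomes -0.43.

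H2-DMa in batch 2 was the clearest of these: HF 1 to HF 3 had 2.04, 2.29 and 2.25 CPM, LF 1 to LF 4 had 2.90, 2.43, 3.82 and 6.80 CPM, and HF-LF 1 to HF-LF 5 had 5.07, 4.22, 3.16, 2.31 and 3.22 CPM. All 3 HF values thus lay below all values of the other diets, with HF-LF 4 (2.31 CPM) close to HF 2 (2.29 CPM). Groups apart were common in batch 2: 27.3% of all genes for HF against LF and 27% for HF against HF-LF. In batch 1 the same gene had 2.65, 2.89 and 9.51 CPM in HF against 3.66, 2.41, 1.87 and 2.68 CPM in LF, with no such order.

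Over both batches, with the batch as a covariate, H2-Aa had a log2 fold change of HF over LF of 1.31 ± 0.81 (SE, edgeR adjusted p = 0.224) and Cd74 of 0.90 ± 0.70 (adjusted p = 0.340), and the median over the 7 members was 0.55. No member was called by edgeR or DESeq2, where 17.8% of 14725 genes were called by edgeR, and none had an unadjusted p under 0.05, where 41.7% of all genes had. DESeq2 gave a p to 2 of the 7 and called 2776 of 14725 genes. Without HF 3 of batch 1 the median turned to -0.65, and without LF 4 of batch 2 H2-Aa was called (log2 fold change 1.94, adjusted p = 0.0381). The share of all genes called without LF 4 is not given here. The difference between the batches in the effect of HF over LF had an unadjusted p under 0.05 for all 7 members, among them H2-Aa (a log2 difference of -4.68 ± 1.22, SE) and Cd74 (-3.91 ± 1.09). None passed the adjustment over all genes (edgeR adjusted p from 0.686 to 0.742), as 0% of 14725 genes did, while 6.50% of all genes had an unadjusted p under 0.05.

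The next comparisons asked what remained after weight loss. Between formerly obese and control mice no member was called: this held in batch 1 (0% of all genes called), batch 2 (0.00696%) and both batches (0%), and none had an unadjusted p under 0.05, against 5.29%, 4.65% and 4.07% of all genes. DESeq2 called none either, giving a p to 2, 6 and 2 of the 7 members. Among all genes it called 6, 16 and 6. The median log2 fold change was 0.082 in batch 1 and -0.45 in batch 2, where each group held 1 of the high samples. Without LF 4 the median in batch 2 was 0.59, and without HF-LF 1 it was -1.16. No member had groups that did not overlap, against 2.41% of all genes in batch 1 and 1.29% in batch 2.

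Between HF and HF-LF the members were higher in HF in batch 1 (7 of 7, median log2 fold change 1.84) and lower in batch 2 (7 of 7, median -0.97). No member was called in batch 1, batch 2 or both batches, where 0.00693%, 14.5% and 10.2% of all genes were called, and unadjusted p-values under 0.05 were had by 6, 2 and 1 of the 7, against 10.9%, 38.2% and 35.7% of all genes. DESeq2 called none, and gave a p to 2, 6 and 2 of them. Among all genes it called 17, 2463 and 1763. Without HF 3 the median of batch 1 was 0.16. In batch 2 H2-DMa was at -0.71 ± 0.30 (SE, edgeR adjusted p = 0.105) and Ciita at -1.24 ± 0.55 (adjusted p = 0.111), and these were the 2 of 7 whose groups did not overlap, against 27% of all genes. H2-DMa was called when LF 4, a sample of neither group, was left out of the shared fit (adjusted p = 0.0385), as were 2272 of 14338 genes. In batch 1 none of the 7 had groups apart, against 8.01% of all genes. The difference between the batches was not called for any member here (0% of all genes) nor for HF-LF over LF (0%), with unadjusted p-values under 0.05 for 7 and 0 of the 7, against 7.69% and 7.63% of all genes.

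The factors that occupy the class II promoters varied little in sum. Rfx5, Rfxank and Rfxap, which form the RFX complex, Nfya, Nfyb and Nfyc, which form NF-Y, and Creb1 summed to 222 to 245 CPM in the 23 samples, and the sums in HF 3 of batch 1, LF 4 of batch 2 and HF-LF 1 of batch 2 were 224, 223 and 235 CPM. None of the 7 was called in any of the 9 comparisons. The proteases Ctss, Ctsl, Ctsb, Ctsd and Lgmn and the reductase Ifi30 prepare peptides and the invariant chain in endosomes, and Ctss was lowest at 217 CPM and highest at 372 CPM, in HF 3 of batch 1. Of these 6, Ifi30 alone was called: in batch 2 it rose in HF over LF (log2 fold change 0.28 ± 0.07, edgeR adjusted p = 0.0369) and over HF-LF (0.34 ± 0.07, adjusted p = 0.0131). Its values were 96.1, 104 and 96.8 CPM in HF against 77.2 to 90.9 CPM in LF and 70.5 to 83.0 CPM in HF-LF, where the fitted levels of the members were lower in HF.

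The co-stimulatory genes Cd80, Cd86 and Cd40, which activated antigen presenting cells carry, stayed at or under 0.248 CPM in each sample, while Cd274 (2.55 to 7.11 CPM) and Icosl (8.60 to 15.7 CPM) were higher, and neither of the 2 counted well enough for a test was called in any comparison. The highest Cd80 of batch 1 (0.248 CPM, 11 counts) was in HF 3. The ubiquitin ligases March1 and March8, which remove class II from the surface, were not called where tested, and only 1 of the 2 was tested in batch 2. March1 was highest of batch 1 in HF 3 (0.563 CPM, 25 counts, 2.91 times the batch median), where March8 was at 1 times. In batch 2 March1 was at 0.0458 CPM (2 counts) in LF 4 and 0.305 CPM (10 counts) in HF-LF 1. H2-Oa, H2-Ob and H2-Eb2, other class II genes, stayed at or under 0.580 CPM. In HF 3 of batch 1, the sample with 126 CPM of H2-Aa, they were at 0, 0.158 and 0.293 CPM, the last being the highest H2-Eb2 of its batch (3.52 times the median, 13 counts). In HF-LF 1 of batch 2 H2-Ob (0.580 CPM, 2.91 times the median) and H2-Eb2 (0.336 CPM, 3.78 times) were the highest of their batch.

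Interferon gamma is the best known inducer of Ciita, so its pathway was followed in the same samples. Its own transcript, Ifng, had no count in 10 libraries and at most 0.182 CPM, in HF 2 of batch 1. The receptor genes Ifngr1 (267 to 358 CPM) and Ifngr2 (148 to 208 CPM) and the kinase genes Jak1 (143 to 210 CPM) and Jak2 (118 to 188 CPM) were abundant. Both kinases were highest of batch 1 in HF 3, at 1.31 and 1.26 times the batch median. In that sample Irf1 was the lowest of its batch (0.589 times) and Irf2 was at 0.873 times. Over the 8 signalling genes HF 3 lay at a median of 1.00 times its batch median. In batch 2 Irf1 was highest in LF 4 (1.16 times) and second in HF-LF 1 (1.11 times). Of the 8 genes of signalling, 7 of which were tested in each comparison, Irf2 alone was called: in batch 2 it fell in HF against LF (log2 fold change -0.45 ± 0.12, edgeR adjusted p = 0.0382) and against HF-LF (-0.50 ± 0.11, adjusted p = 0.0174).

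Of the 13 interferon gamma target genes 12 were tested in batch 1, 11 in batch 2 and 13 over both batches, and none was called in any comparison, but several were high in the samples with high class II. Gbp2, a guanylate binding protein of the interferon response, had 48.4 CPM in HF 3 of batch 1 and 26.2 CPM in HF 2, where the other 9 samples had 6.47 to 13.6 CPM. In batch 2 it had 20.2 CPM in LF 4 and 19.3 CPM in HF-LF 1, where the other 10 had 3.94 to 11.7 CPM. LF 4 of batch 2 had the highest value of its batch for 9 of the 13 targets and was at a median of 1.74 times the batch median, HF-LF 1 was highest or second for 11 of 13 at 1.86 times, and HF 3 of batch 1 was highest or second for 9 of 13 at 1.83 times.

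HF 2 and HF 3 of batch 1 were close to each other over the list of targets and differed in single targets and in class II. HF 2 was highest for 5 of the 13 and at a median of 1.76 times the batch median, close to HF 3, with the largest values for Ido1, an enzyme that breaks down tryptophan (11.9 CPM against 5.88 CPM in HF 3 and 1.31 to 3.44 CPM in the other 9), and for the T cell attractant Cxcl9 (1.52 CPM against 0.383 and 0.0271 to 0.194 CPM). Nlrc5, the class I counterpart of Ciita, was at 5.98 and 6.22 CPM in HF 2 and HF 3. HF 2 and HF 3 were thus highest or second for 8 and 9 of the 13 targets, while their Cd74 was at 14.9 and 186 CPM.

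**Figure D4:**
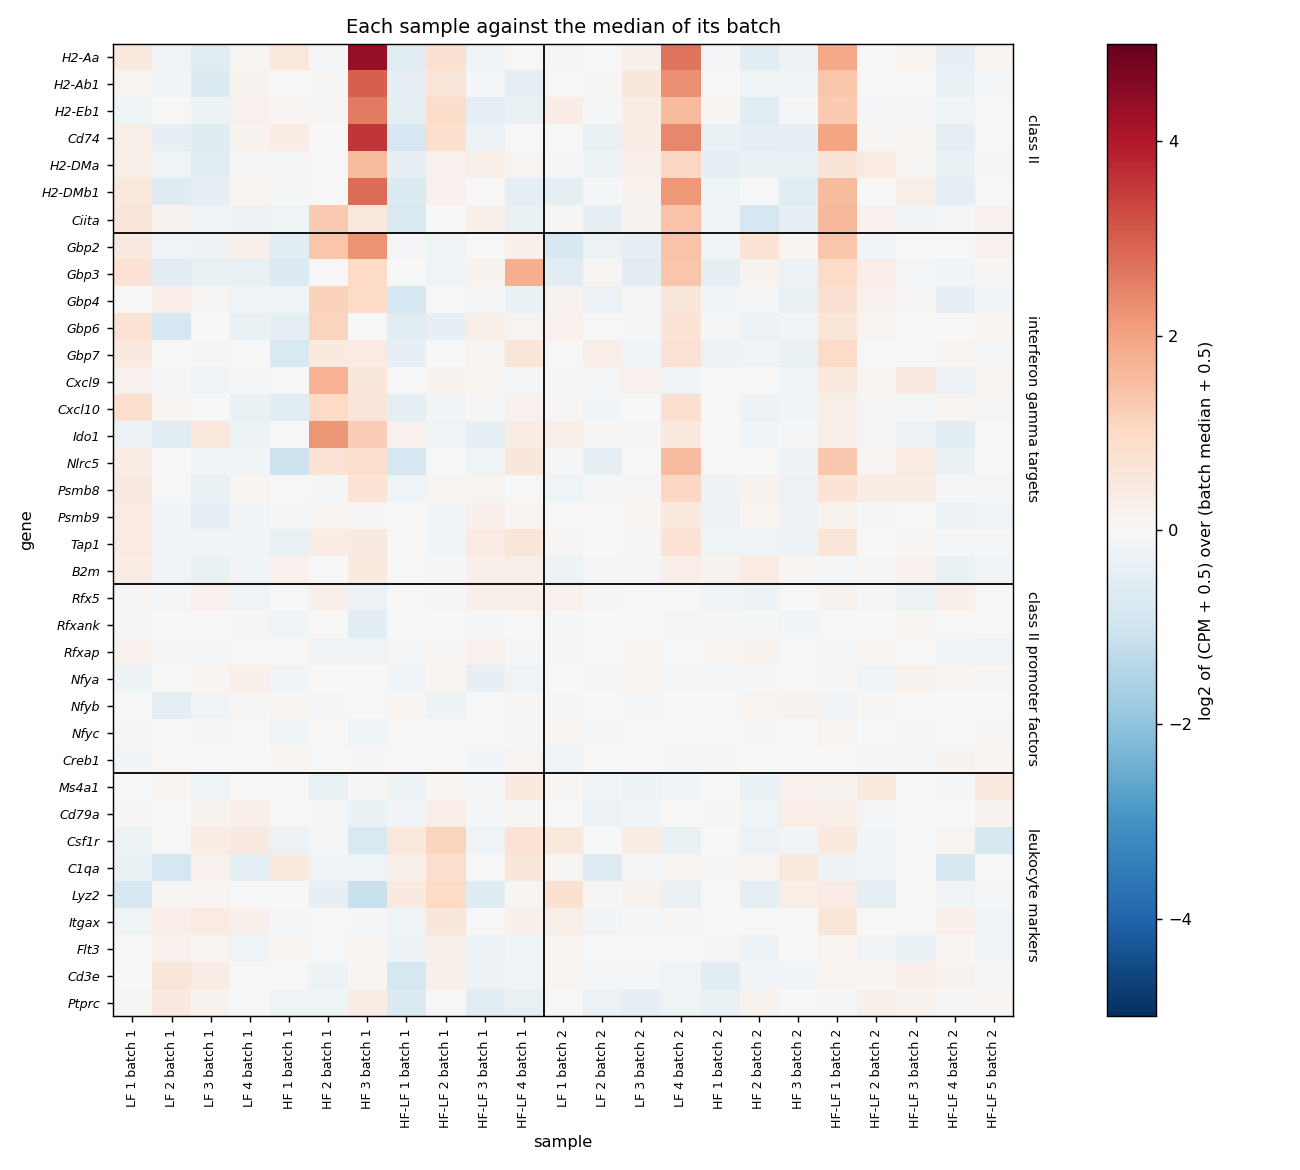
Each sample against the median of its batch, as the log2 of (CPM + 0.5) over (batch median + 0.5), for 7 class II genes, 13 interferon gamma targets, 7 promoter factors and 9 leukocyte markers, with a black line between the batches and the colour scale ending at 5. HF 3 of batch 1 and LF 4 and HF-LF 1 of batch 2 are red in the class II rows, HF 2 of batch 1 is red in the rows of Ciita, Gbp2, Cxcl9 and Ido1, and the promoter factors are pale throughout.

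Because epithelium released with EDTA can also hold immune cells, the markers of cells that make class II constantly were read beside it. The 5 B cell markers (Ms4a1, Cd79a, Cd79b, Pax5 and Cr2) summed to 0.496 CPM in HF 3 of batch 1 and 0.526 CPM in LF 4 of batch 2. The groups ran from 0.542 to 0.928 CPM (LF), 0.121 to 0.669 (HF) and 0.254 to 1.12 (HF-LF) in batch 1, and from 0.172 to 0.703, 0.0780 to 0.978 and 0.452 to 1.53 CPM in batch 2. HF-LF 1 of batch 2 had 1.28 CPM, the second highest sum of its batch. The 7 dendritic cell markers summed to 1.98, 1.72 and 2.41 CPM in HF 3 of batch 1, LF 4 of batch 2 and HF-LF 1 of batch 2. The group ranges were 1.47 to 2.30 CPM (LF), 1.49 to 1.98 (HF) and 1.35 to 2.65 (HF-LF) in batch 1, and 1.30 to 2.11, 1.27 to 1.65 and 1.06 to 2.41 CPM in batch 2. HF 3 and LF 4 thus had sums within the range of their batch's other samples for both lists. These sums rest on few counts, so small differences in them cannot be read. Single B cell markers had 0 to 8 counts in HF 3 and 2 to 8 in LF 4, and dendritic cell markers 1 to 39 and 0 to 39. HF 3 had the highest Ccr7 of its batch (0.406 CPM, 18 counts), whereas HF-LF 1 was the highest sample of batch 2 for the dendritic cell sum.

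The macrophage and monocyte markers differed between the high samples. Of the 10, HF 3 of batch 1 was highest for Cd14 alone (33.3 CPM) and lay at a median of 0.308 times its batch median, with C1qb at 0.0676 CPM (3 counts), C1qc at 0.0901 CPM (4 counts) and Fcgr1 at 0. LF 4 of batch 2 lay at a median of 0.988 times its batch. HF-LF 1 of batch 2 was highest or second for 4 of the 10, with Adgre1 at 0.428 CPM (14 counts, 5.28 times the batch median), Csf1r at 1.63, Lyz2 at 1.41 and Cd68 at 1.35 times the batch median. The part of these cells in its class II level was not tested. The sums, most of which was Cd14, ran from 31.7 to 34.7 CPM (LF), 37.4 to 40.8 (HF) and 29.4 to 43.7 (HF-LF) in batch 1 and from 37.0 to 42.9, 41.9 to 45.1 and 34.7 to 40.0 CPM in batch 2. HF-LF 2 of batch 1, second to HF 3 for H2-Aa, H2-Ab1, H2-Eb1 and Cd74, was a different case: it had the highest C1qa (2.91 CPM), C1qb (1.58), C1qc (1.81), Csf1r (2.45) and Lyz2 (6.13 CPM) of its batch. Its sums were also the highest of its batch for B cell (1.12 CPM) and dendritic cell markers (2.65 CPM). The same held for fibroblast (51.3 CPM) and smooth muscle markers (36.4 CPM), but not for T cell markers (13.2 CPM). The part of any of these cells in the class II level of HF-LF 2 was not tested. Cd14 was higher in HF than in HF-LF in batch 2 (log2 fold change 0.38 ± 0.09, SE, edgeR adjusted p = 0.0198) and, over both batches, than in LF (0.36 ± 0.10, adjusted p = 0.0118) and HF-LF (0.43 ± 0.09, adjusted p = 0.0119).

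T cell and pan-leukocyte markers were highest in other samples than class II. The 8 T cell and intraepithelial lymphocyte markers summed to 13.9 CPM in HF 3 of batch 1 (7.81 to 19.2 CPM over its batch), 8.60 CPM in LF 4 and 10.6 CPM in HF-LF 1 of batch 2 (6.30 to 11.6 CPM over theirs). Ptprc, the common leukocyte antigen, was at 18.7, 9.29 and 10.4 CPM, and its highest sample in batch 1 was LF 2 (19.6 CPM), where Cd74 was at 11.0 CPM. In batch 2 the T cell markers Cd3e (log2 fold change -0.94 ± 0.30, edgeR adjusted p = 0.0422) and Itgae (-0.45 ± 0.12, adjusted p = 0.0248) fell in HF against HF-LF, the comparison in which H2-DMa and Ciita did not overlap, and their part in those values was not tested. The macrophage gene C1qc fell in HF against LF in batch 2 (-1.67 ± 0.42, adjusted p = 0.0363), beside lower fitted levels of all 7 members there, and its part was not tested either. Over both batches C1qc fell as well (-1.28 ± 0.47, edgeR adjusted p = 0.0430), whereas 6 of the 7 members had a higher fitted level in HF. HF 3 of batch 1 also had the lowest sums of its batch for fibroblast markers (2.86 CPM), smooth muscle markers (0.383 CPM) and endothelial markers (1.64 CPM). The fibroblast gene Pdgfra fell in HF against LF over both batches (-1.19 ± 0.44, edgeR adjusted p = 0.0462).

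The 10 genes most like the mean of H2-Aa, H2-Ab1 and Cd74, by Pearson's r of log2 CPM centred in each batch over the 23 samples and among 14700 genes, were Pmvk (r = 0.850), Psmb8 (0.804), C1ra (0.797), Shmt2, Zswim5, Mthfd1l, Pdp1, Slc39a10, Gbp2 and Prkd3 (0.737). The members themselves reached 0.956 for H2-Eb1, 0.951 for H2-DMb1, 0.912 for H2-DMa and 0.623 for Ciita. The points share their libraries. Without HF 3 of batch 1 and LF 4 and HF-LF 1 of batch 2, which were left out for their class II level, r over the other 20 samples was 0.756 for H2-Eb1, 0.724 for H2-DMb1, 0.698 for H2-DMa and 0.417 for Ciita. Over the same 20 samples it stayed above 0.5 for 2 of the 10 others, C1ra (0.627) and Psmb8 (0.502), and was -0.12 for Gbp2. Psmb8, a subunit of the immunoproteasome, had 27.1 CPM in HF 3 of batch 1 and 37.3 and 28.7 CPM in LF 4 and HF-LF 1 of batch 2, against 13.0 to 23.2 and 14.2 to 22.9 CPM in the other samples. C1ra, a protease that starts the complement cascade, had 4.33, 4.35 and 4.31 CPM in these samples against 1.73 to 3.17 and 2.09 to 3.50 CPM. Both genes were picked for a correlation in which these 3 samples weigh heavily, so their high values there are no separate finding.

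The loci (mm10, as deposited) show that 6 of the 8 genes are neighbours on chromosome 17: H2-DMa (34122832 to 34139101), H2-DMb2 (34145416 to 34151095), H2-DMb1 (34153191 to 34160229), H2-Ab1 (34263227 to 34269418) and H2-Eb1 (34305867 to 34316674) on the plus strand and H2-Aa (34282751 to 34287771) on the minus strand. Ciita lies on chromosome 16 (10480072 to 10527564, plus strand) and Cd74 on chromosome 18 (60803849 to 60812652, plus strand). Cd74 and the chains therefore had the same 3 high samples from different chromosomes. H2-DMb2, between H2-DMa and H2-DMb1, did not, at only 2 to 15 counts a library. The locus of Cd74 also spans that of the microRNA Mir5107 on the same strand, and the other 7 overlapped no counted locus.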

How the data were processed

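Total RNA of the colonic epithelium of 23 mouse samples was sequenced after removal of ribosomal RNA with a stranded kit. The authors deposited whole-number counts per gene, not normalized, and the submitters' processing notes name cutadapt 1.2.1, STAR 2.5, featureCounts 1.5.0-p1 (Subread) and mm10. How reads matching several loci were counted and whether strand was used are not given in the sources used here. Samples were grouped by the diet and batch in their titles. From the deposited counts, edgeR 4.0.16 (R 4.3.3) fitted all genes kept by filterByExpr with TMM factors and a quasi-likelihood test: 3 diets within each batch, both batches with the batch as a covariate, and the diet by batch interaction. p-values were adjusted by Benjamini-Hochberg over all genes (threshold 0.05 and 1.2-fold). CPM used the TMM factors of each batch, log2 CPM a prior count of 2, and RPKM the exons of GENCODE M21. The alternatives were RLE factors, no filter on low counts, DESeq2 1.42.0, a replicate block, leaving out each sample in turn and summing same-numbered samples. The fit was tested on simulated data with known changes. The 5 closest pairs of samples of a diet differed by a chi-square per degree of freedom of 11.3 or more, so no library was counted as a duplicate. Nothing says that samples came from separate mice, so p-values may measure spread between preparations. Intervals of counting error are not given, and the floor of 3 counts covers counting error only.

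The members and gene lists were chosen with earlier results of these data known. Named genes were the 8 members in each sample, any gene of the pathway and marker lists that was called, and the 10 genes most correlated with H2-Aa, H2-Ab1 and Cd74. Other list genes were named as examples after their values were seen, as were the samples that stood apart and the promoter motifs. In these lists 2 further genes are not reported here and were left out of the sums and counts. Adgre1 and Jchain were matched by their older symbols. Plasma cell markers were not read as a sum, because Sdc1 (302 to 420 CPM) is also an epithelial gene and Tnfrsf17 was at 0 in 15 libraries.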

Additional observations from a re-analysis of the deposited data

Results flagged for a closer look

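In groups of 4 or 5 samples, 11 of 32 groups of a gene and a diet held a sample whose gap to its nearest neighbour exceeded Dixon's 95% critical value for its share of the range, where chance gives about 5%. The genes move together, so these are not 11 independent cases. Groups of 3, which include both HF groups and so HF 3 of batch 1, were not tested.

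LF 4 was apart in LF of batch 2 for H2-Aa (a share of 0.954, 32.9 CPM against 4.43 to 5.73 CPM), H2-Ab1 (0.873), H2-DMb1 (0.893) and Cd74 (0.889). HF-LF 1 was apart in HF-LF of batch 2 for H2-Aa (0.881, 18.8 CPM against 3.36 to 5.21 CPM), H2-Ab1 (0.882), H2-Eb1 (0.896), H2-DMb1 (0.761), Cd74 (0.886) and Ciita (0.880, 6.41 CPM against 1.49 to 2.08 CPM). HF-LF 2 was apart in HF-LF of batch 1 for H2-Eb1 (0.939, 10.5 CPM against 3.67 to 4.09 CPM).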

How the results depend on the processing

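The count of members called was the same under 179 of 183 alternatives. It was 5 for HF over LF in batch 1 without HF 2 (range 0 to 5 on leaving out each sample), 1 for HF over LF in batch 2 with DESeq2, 1 for HF over LF in both batches without LF 4 of batch 2 (range 0 to 1) and 1 for HF over HF-LF in batch 2 without LF 4 (range 0 to 1). The first, second and last of these settings called 1352 of 14620, 1845 of 14377 and 2272 of 14338 genes. A replicate block gave 0 in all 9 comparisons (H2-Aa, HF over LF, batch 1: log2 fold change 2.10, adjusted p = 0.233). Same-numbered samples did not deviate together in every pair (5 of 10 pairs in batch 1 and 4 of 10 in batch 2 had a correlation over 0.1, and 5 of 11 and 6 of 11 samples were closest to one of their own number), so the pairing rests on a number only.

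In both batches, leaving out each sample in turn moved the log2 fold change of HF over LF from -0.75 (without HF 3 of batch 1) to 1.94 for H2-Aa, -0.65 to 1.03 for H2-Ab1, -0.44 to 0.79 for H2-Eb1, -0.67 to 1.42 for Cd74, -0.46 to 0.33 for H2-DMa, -0.89 to 1.17 for H2-DMb1 and -0.55 to 0.20 for Ciita. In batch 1 it ran from -0.052 to 2.34 for H2-DMb1. As an alternative chosen after seeing the data, HF 3 of batch 1 and LF 4 and HF-LF 1 of batch 2 were left out together: the values were then -0.044 for H2-Aa, -0.12 for H2-Ab1, -0.13 for H2-Eb1, -0.082 for Cd74, -0.22 for H2-DMa, -0.19 for H2-DMb1 and 0.11 for Ciita, and no member was called in any comparison of batch 2 or both batches. Since the samples were left out for their class II level, this is a description. In batch 2 without LF 4 and HF-LF 1, all 7 members had a lower fitted level in HF than in LF (median log2 fold change -0.43, Cd74 at -0.46). The p-values of that fit are not read, because the samples were left out for the values of the same genes. With same-numbered samples of both batches summed (4 LF, 3 HF, 5 HF-LF), no member was called and H2-Aa was at 1.22. DESeq2 gave no p to 5 of the 7 members in batch 1 and both batches and to H2-Aa in batch 2. The interaction between diet and batch was fitted in 1 way only. The cause of the high samples was not tested.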
